A study of Homo sapiens with 8 samples.

Results

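The m6A peaks described here spanned a stop codon and crossed at least 1 intron, so that their exonic sequence lay on both sides of a splice junction. They were taken from the authors' 2 deposited peak lists of U2OS cells, 1 list for cells given siRNA against YTHDF2 (DF2) and 1 for control cells. A peak was a member when its label held the stop codon but not the 5′ UTR and its genomic span exceeded its exonic sequence by more than 20 nt. This rule gave 2076 members among the 13219 peaks of DF2 siRNA cells and 2799 among the 15730 peaks of control cells, 4875 of 28949 peaks in all. Members made up 15.7% of the DF2 siRNA list (95% exact Clopper-Pearson interval 15.1 to 16.3%) and 17.8% of the control list (17.2 to 18.4%). Just inside the limit lay peaks with gaps of 25 nt (PRICKLE4), 27 nt (UBAP2L) and 29 nt (CAMSAP2, GCAT and MPHOSPH9) in both lists. Just outside it lay gaps of 6 nt (EIF4G3), 9 nt (TAF10) and 14 nt (IMP4) in the DF2 siRNA list, and of 1 nt (ZDHHC11B), 6 nt (EIF4G3 and MSTO1) and 14 nt (IMP4) in the control list.

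U2OS is a human line from an osteosarcoma, a bone tumour. The 8 libraries formed 4 groups of 2: m6A immunoprecipitate of DF2 siRNA cells, input of DF2 siRNA cells, m6A immunoprecipitate of control cells and input of control cells. Cytoplasmic RNA was fragmented and m6A fragments were pulled down with an anti-m6A antibody, and nothing in the labels says what the control cells received, whether DF2 siRNA 1 and 2 are different siRNAs, or whether the libraries came from separate cultures. Each list combines both immunoprecipitates of its condition and library depth is unknown, so differences between conditions have no replicate check and carry no p-value. Intervals cover counting error over peaks only. The targeted gene YTHDF2 had no member in either list. Its DF2 siRNA peak had 1400 nt within 1 exon and its control peak, 2000 nt wide, was also labelled 5′ UTR. Peak lists do not measure mRNA levels, so the knockdown was not checked here. Of the epithelial, blood, endothelial and mesenchymal marker lists, 1 of 5, 0 of 4, 1 of 3 and 3 of 6 genes had a peak in DF2 siRNA cells, and 1 of 5, 1 of 4, 2 of 3 and 3 of 6 in control cells. The mesenchymal genes COL1A1, COL5A1 and RUNX2 had one in both lists, while VIM, FN1 and SPARC had none.

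m6A is the most common internal modification of mRNA, and it is known to gather around stop codons and in long last exons. Exon junction complexes, which the spliceosome leaves just upstream of exon junctions, keep the methyltransferase away from nearby adenosines. YTHDF2 binds m6A in cytoplasmic mRNA and recruits the CCR4-NOT deadenylase, which leads to decay. Where the stop codon lies close to the last junction, fragments from 1 methylated site can reach back into the exon before it, and a peak built along the spliced transcript then holds an intron gap.

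Spliced stop codon peaks were fewer in DF2 siRNA cells, while stop codon peaks within 1 exon were about as many in both lists. Members numbered 2076 in DF2 siRNA cells and 2799 in control cells, a ratio of 0.742. Stop codon peaks within 1 exon numbered 2569 and 2579, a ratio of 0.996. All peaks gave a ratio of 0.840. The spliced share of these stop codon peaks was 44.7% (43.3 to 46.1%) in DF2 siRNA cells and 52.0% (50.7 to 53.4%) in control cells. Since a wider peak crosses a junction more easily, the share was also taken by width. It was lower in DF2 siRNA cells in each of 6 width classes, with intervals apart at over 400 to 600 nt and over 600 to 800 nt and overlapping in the other 4. In peaks of at most 400 nt it was 31.3% in DF2 siRNA cells and 34.4% in control cells. In peaks of over 600 to 800 nt it was 48.1% (44.7 to 51.5%) in DF2 siRNA cells and 60.3% (57.1 to 63.4%) in control cells. The number of peaks in a list depends on its sequencing depth, whose part in these differences was not tested.

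Members lay in 1982 genes in DF2 siRNA cells and 2622 genes in control cells. A total of 1638 genes had a member in both, which is 82.6% of the DF2 siRNA genes and 62.5% of the control genes. Of the 344 genes with a member in DF2 siRNA cells only, 56 had no peak of any kind in control cells. Of the 984 genes with a member in control cells only, 258 had no peak of any kind in DF2 siRNA cells. As a share of all member genes these were 2.83% in DF2 siRNA cells and 9.84% in control cells, against 7.08% and 20.3% of all genes with a peak. Most genes with a member in 1 condition thus had a peak of some kind in the other. The authors labelled 89.8% of DF2 siRNA members and 90.5% of control members as coding, stop codon and 3′ UTR together. Another 180 DF2 siRNA members and 222 control members were labelled coding and stop codon without 3′ UTR. A total of 137 DF2 siRNA members and 160 control members shared bases with a peak assigned to another Ensembl gene, and these are uncertain as to their gene.

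Members had the same median width in both lists, and fewer of them crossed more than 1 intron in DF2 siRNA cells. The median exonic width was 800 nt in DF2 siRNA cells and 800 nt in control cells (interquartile range 600 to 1200 nt in both), against 600 nt and 710 nt for the single-exon stop codon peaks. Widths were a multiple of 200 nt in 90.1% of members of both lists, so ends are known in steps of 200 nt. The 95th percentile of width was 2000 nt in DF2 siRNA cells and 2200 nt in control cells. In 1486 pairs of members that met only each other, the DF2 siRNA peak was narrower in 33.5% (31.1 to 36.0%) and wider in 9.35%. Over all pairs of peaks it was narrower in 38.5% and wider in 15.1%. In DF2 siRNA cells 1539 members (74.1%) crossed 1 intron and 537 (25.9%, 24.0 to 27.8%) crossed more. In control cells 1928 (68.9%) crossed 1 intron and 871 (31.1%, 29.4 to 32.9%) crossed more.

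Most of a member lay downstream of the last junction it crossed. The median stretch before that junction was 114 nt in DF2 siRNA cells and 124 nt in control cells. After it the medians were 559 nt and 574 nt. The stretch before the junction was under 200 nt, less than a bin of the peak lists, in 69.7% of DF2 siRNA members and 67.8% of control members. More sequence lay before than after the junction in 19.3% of DF2 siRNA members and 19.6% of control members.

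**Figure D1:**
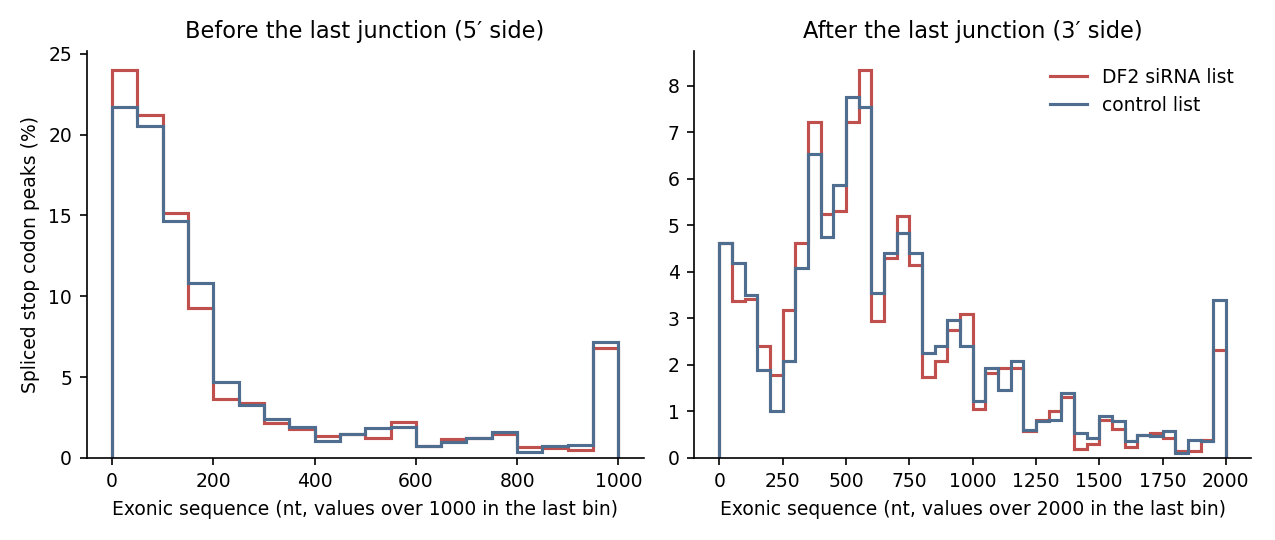
Exonic sequence of each spliced stop codon peak before (left) and after (right) the last junction it crossed, in bins of 50 nt, as a percentage of the members of the DF2 siRNA list (red) and the control list (blue); the last bin holds all longer stretches. Stretches before the junction gather below 200 nt (69.7% in DF2 siRNA, 67.8% in control), and those after it centre on medians of 559 and 574 nt.

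The summed intron gap had a median of 1836 nt in DF2 siRNA cells (interquartile range 656 to 4761 nt) and 2231 nt in control cells (852 to 5795 nt). The shortest gap was 25 nt in both lists. Members with short gaps were about as many in both lists, and members with long gaps were fewer in DF2 siRNA cells. At gaps of 21 to 200 nt there were 194 members in DF2 siRNA cells and 192 in control cells. Gaps of over 1000 to 2000 nt gave 379 in DF2 siRNA cells and 502 in control cells. Gaps of over 5000 to 20000 nt gave 396 and 659, and longer gaps 98 and 170. Up to 500 nt the ratio of DF2 siRNA to control members was 0.95 (0.83 to 1.09), and over 5000 nt it was 0.60 (0.53 to 0.67). With peaks of a deposited −log10 value of at least 3.3 only, the ratio up to 500 nt was 0.83 (0.71 to 0.97), so that the near equality at short gaps did not hold under that limit. The ratio over 5000 nt was lower under it as well, at 0.54 (0.48 to 0.61), with 1616 members left in DF2 siRNA cells and 2349 in control cells. This limit may not be equal in the 2 lists, since the value is named an FDR for DF2 siRNA and a p-value for control.

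Members that crossed 1 intron gave ratios of 1.0 at 21 to 200 nt, 0.67 at over 5000 to 20000 nt and 0.76 at longer gaps, so the fall was not monotonic there. A lower ratio at long gaps was not limited to stop codon peaks. All other peaks crossing an intron, 3459 in DF2 siRNA cells and 4463 in control cells, gave a ratio of 0.87 at the shortest gaps and 0.66 at the longest. The difference between these courses was not tested.

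**Figure D2:**
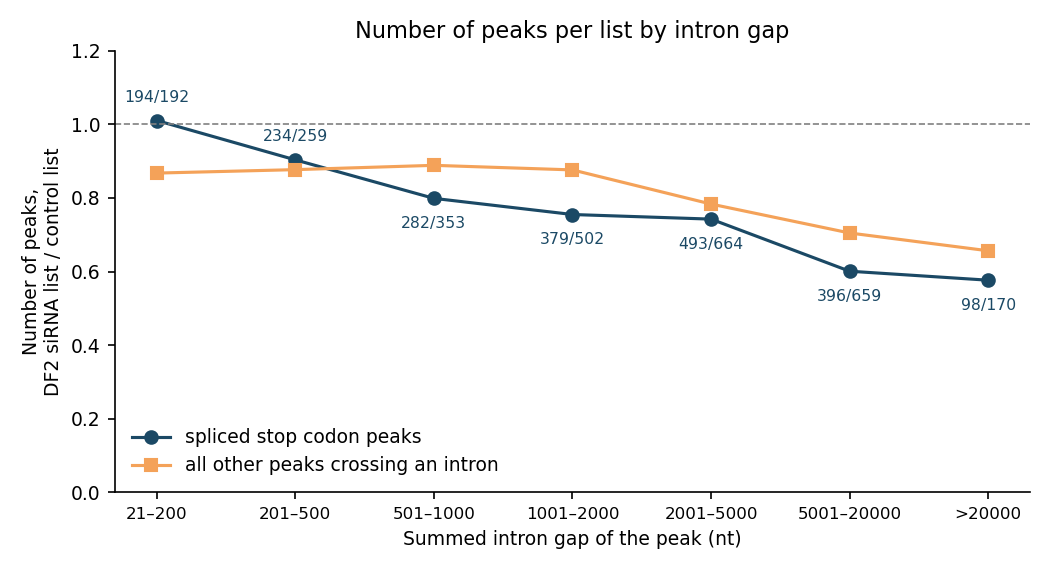
Number of peaks in the DF2 siRNA list divided by the number in the control list (y axis) by summed intron gap in nt (x axis), for spliced stop codon peaks (circles, with both counts, DF2 siRNA first) and all other peaks that cross an intron (squares). The dashed line marks equal numbers. Spliced stop codon peaks go from 194/192 at the shortest gaps to 98/170 at the longest, and the other peaks end lower as well.

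The longest gaps were over 100000 nt, and several were present in both lists. A member of the teashirt zinc finger gene TSHZ2 bridged 230572 nt on chromosome 20 in both lists (hg38, plus strand). It ran from 53255978 to 53487549 in DF2 siRNA cells, with 1000 nt of exonic sequence, and from 53255978 to 53487949 in control cells, with 1400 nt. Both started at the same base, 594 nt before the junction, and the DF2 siRNA peak ended 400 nt earlier in the 3′ UTR. BCL2, which blocks apoptosis, had a gap of 185018 nt over 2 introns in both lists. Its width was 2000 nt in DF2 siRNA cells and 2200 nt in control cells. TRPS1, a GATA-type repressor of transcription, had a DF2 siRNA member of 2200 nt with 5 introns and 187933 nt of gap. This member met 2 control peaks. The first was a member of 800 nt with 4 introns and 184688 nt of gap, the other a single-exon stop codon peak of 1200 nt. KIAA0825 (gap 230243 nt) had a control member of 400 nt and no match in DF2 siRNA cells. The control member of the protocadherin gene PCDH7, with a gap of 154665 nt and a deposited fold enrichment of 9.57, met a single-exon peak of 600 nt in DF2 siRNA cells. Longer still were DF2 siRNA members of 2 Ensembl genes without a name on chromosome 3, ENSG00000283154 (602783 nt) and ENSG00000283245 (591583 nt). Their peaks overlap almost throughout, so they may be the same signal counted under both genes.

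In most of the widest members nearly all of the sequence lay on 1 side of the last junction. The DF2 siRNA member of TACC2, a centrosome protein gene, had 5400 nt of exonic sequence, of which 5385 nt lay before the last junction. The DF2 siRNA member of TMEM184A had 5000 nt, of which 4942 nt lay after it. ANKRD11, a chromatin regulator gene, had the same 4600 nt interval in both lists. The widest control member, in ALMS1, a gene for a centrosome and basal body protein, had 5200 nt with 5050 nt before the junction. The control member of DSP, the desmoplakin gene, was an exception, with 2417 nt before and 2183 nt after the junction. The scaffold gene SH3PXD2A had 4200 nt over 3 introns in both lists. ERMAP crossed 6 introns in both lists. FAM193A, FAM208B and SWT1 also crossed 6 in the control list. ERMAP had 1000 nt of exonic sequence from 42835736 to 42843358 on chromosome 1.

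Nearly all members of DF2 siRNA cells had a counterpart in control cells, and fewer of the reverse. A match was at least 1 shared exonic base on the same strand. It was found for 1972 DF2 siRNA members, 95% (94.0 to 95.9%), where 87.5% of all DF2 siRNA peaks had a match in control. It was found for 2353 control members, 84.1% (82.7 to 85.4%), where 71.9% of all control peaks had a match in DF2 siRNA cells. Single-exon stop codon peaks were matched in 91.9% of DF2 siRNA and 81.3% of control cases.

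The match was the same interval to the base for 904 members. These are 43.5% of the DF2 siRNA members and 32.3% of the control members, against 35.1% and 29.5% of all peaks. Another spliced stop codon peak was the match for 789 DF2 siRNA members (38.0%) and 791 control members (28.3%). A spliced stop codon peak of either kind thus matched 81.6% of DF2 siRNA members and 60.6% of control members. Such peaks met 19.2% of all DF2 siRNA peaks and 13.4% of all control peaks. Only a single-exon stop codon peak matched 134 DF2 siRNA members (6.45%) and 375 control members (13.4%). No match was found for 104 DF2 siRNA members (5.01%) and 446 control members (15.9%).

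**Figure D3:**
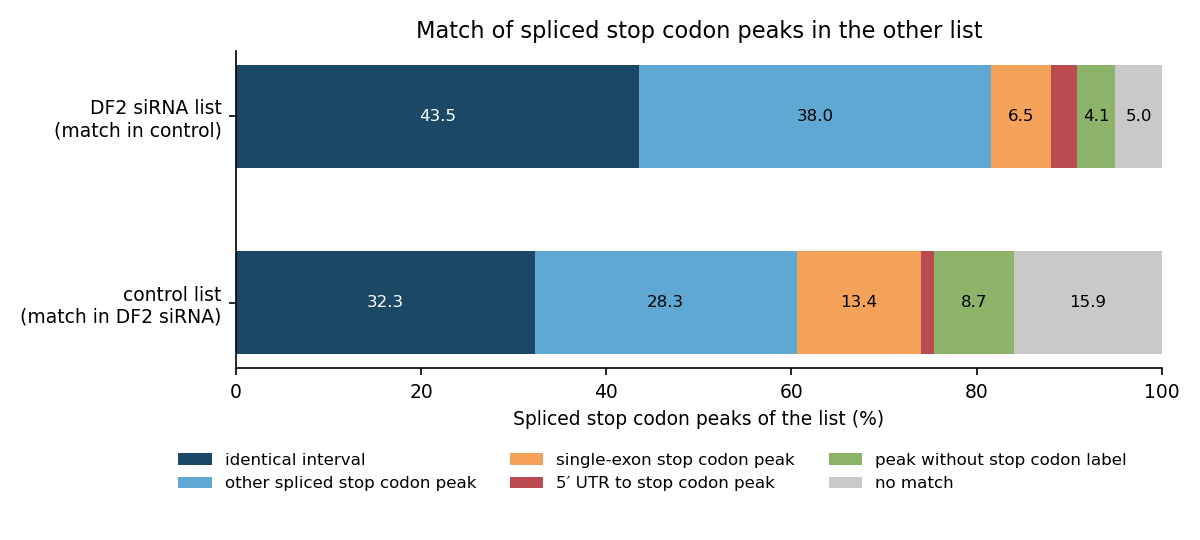
Spliced stop codon peaks of the DF2 siRNA list (upper bar, 2076 peaks) and the control list (lower bar, 2799 peaks), split by what they met in the other list, in percent of the list. Identical intervals are 43.5% and 32.3%, single-exon stop codon peaks 6.45% and 13.4%, and peaks without a match 5.01% and 15.9%.

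Matching followed the width of the peak. Members of at most 400 nt were matched in 81.1% of DF2 siRNA cases (76.4 to 85.3%) and 48.8% of control cases (43.4 to 54.3%). Members over 1400 nt were matched in 100% of DF2 siRNA cases and 98.8% of control cases. At equal width the spliced peaks were close to the single-exon ones. The exception was control peaks of over 400 to 600 nt, where 75.6% of spliced peaks (72.2 to 78.7%) and 84.6% of single-exon peaks (81.5 to 87.4%) had a match in DF2 siRNA cells. The higher match of spliced than of single-exon peaks in the whole control list, by 2.72 percentage points, was −3.52 points when only peaks with a deposited −log10 value of at least 3.3 were kept, a value labelled as an FDR in the DF2 siRNA list and as a p-value in the control list. Unmatched members had a median width of 400 nt in DF2 siRNA cells and 600 nt in control cells, and a median deposited fold enrichment of 12.4 and 13.5.

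**Figure D4:**
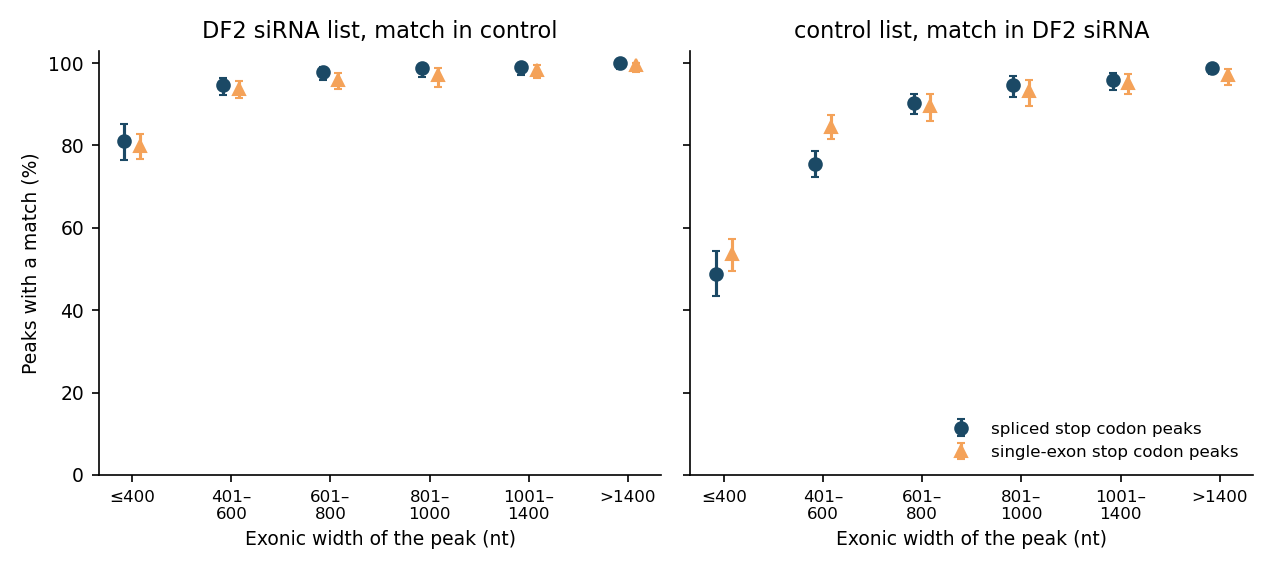
Percentage of stop codon peaks with a match in the other list (y axis) by exonic width in nt (x axis), for spliced (circles) and single-exon peaks (triangles), in the DF2 siRNA list (left) and the control list (right). Bars are 95% exact binomial intervals. The share climbs with width to 100% and 98.8% of spliced peaks over 1400 nt.

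Match also differed between the shortest and the longest gaps, in opposite directions in the lists, with overlapping intervals in control cells. Width differed as well. The median was 600 nt in both lists at the shortest gaps. At gaps over 20000 nt it was 800 nt in DF2 siRNA cells and 1000 nt in control cells. The match by gap at equal width was not tested. Among DF2 siRNA members, 86.1% (80.4 to 90.6%) had a match at gaps of 21 to 200 nt and 98.0% (92.8 to 99.8%) at gaps over 20000 nt. Among control members it was 87.5% (82.0 to 91.8%) at the shortest gaps and 80% (73.2 to 85.7%) at the longest. The match to a peak that was itself spliced was 71.4% of control members at the shortest gaps, 54.2% at gaps of over 5000 to 20000 nt and 58.8% at longer gaps. For DF2 siRNA members it went the other way, with 69.6% (62.6 to 76.0%), 83.3% and 85.7% (77.2 to 92.0%) at the same gaps.

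The last junction itself was crossed by a peak of the other list for 85.3% (83.7 to 86.8%) of DF2 siRNA members and 63.3% (61.5 to 65.1%) of control members. These were 1770 of 2076 and 1771 of 2799 members, so the 2 shares differ by the number of members per list. The share over all peaks that cross a junction is not given here. Among members it was lowest where they reached 100 to 200 nt back from the junction, at 80.9% for DF2 siRNA members and 53.9% for control members. At that distance the other list held only a single-exon peak for 12.4% of DF2 siRNA members and for 27.6% of control members (197 of 714). Members that reached less far back had no such low, with 84.9% of DF2 siRNA members and 63.8% of control members under 50 nt, and 86.4% and 64.9% at 50 to 100 nt.

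Where 1 peak of each list met only the other, their ends could be compared. In 1486 pairs with a spliced peak in both lists, the 5′ end was equal in 84.7%. It was shorter in DF2 siRNA cells in 11.4% (9.80 to 13.1%) and longer in 3.90% (2.98 to 5.02%). A pair that lost its only junction is not among these, so the share is not set against other pairs. In the 2280 pairs with a spliced stop codon peak in at least 1 list the 5′ end was shorter in DF2 siRNA cells in 678, or 29.7% (27.9 to 31.7%). Of these 678 pairs, 316 were spliced in control cells and single-exon in DF2 siRNA cells, a class that largely sets this outcome. The 29.7% therefore cannot be read against the 22.9% of all 9591 pairs of peaks. The 3′ end of the spliced pairs was shorter in DF2 siRNA cells in 27.3% (25.1 to 29.7%) and longer in 7.27%, and it was shorter in 27.3% of all pairs too. The median step was 200 nt wherever ends differed. In all, 328 pairs were spliced in control cells and single-exon in DF2 siRNA cells, and 109 pairs the reverse. In these pairs the class itself largely sets which peak reaches further back. In the 328 pairs it was the control peak in 316, the DF2 siRNA peak in 1, and the 5′ ends were equal in 11. At their 3′ end the DF2 siRNA peak was shorter in 44.2% and longer in 4.27%. In the 109 reverse pairs the 3′ end was shorter in DF2 siRNA cells in 12.8% and longer in 15.6%.

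**Figure D5:**
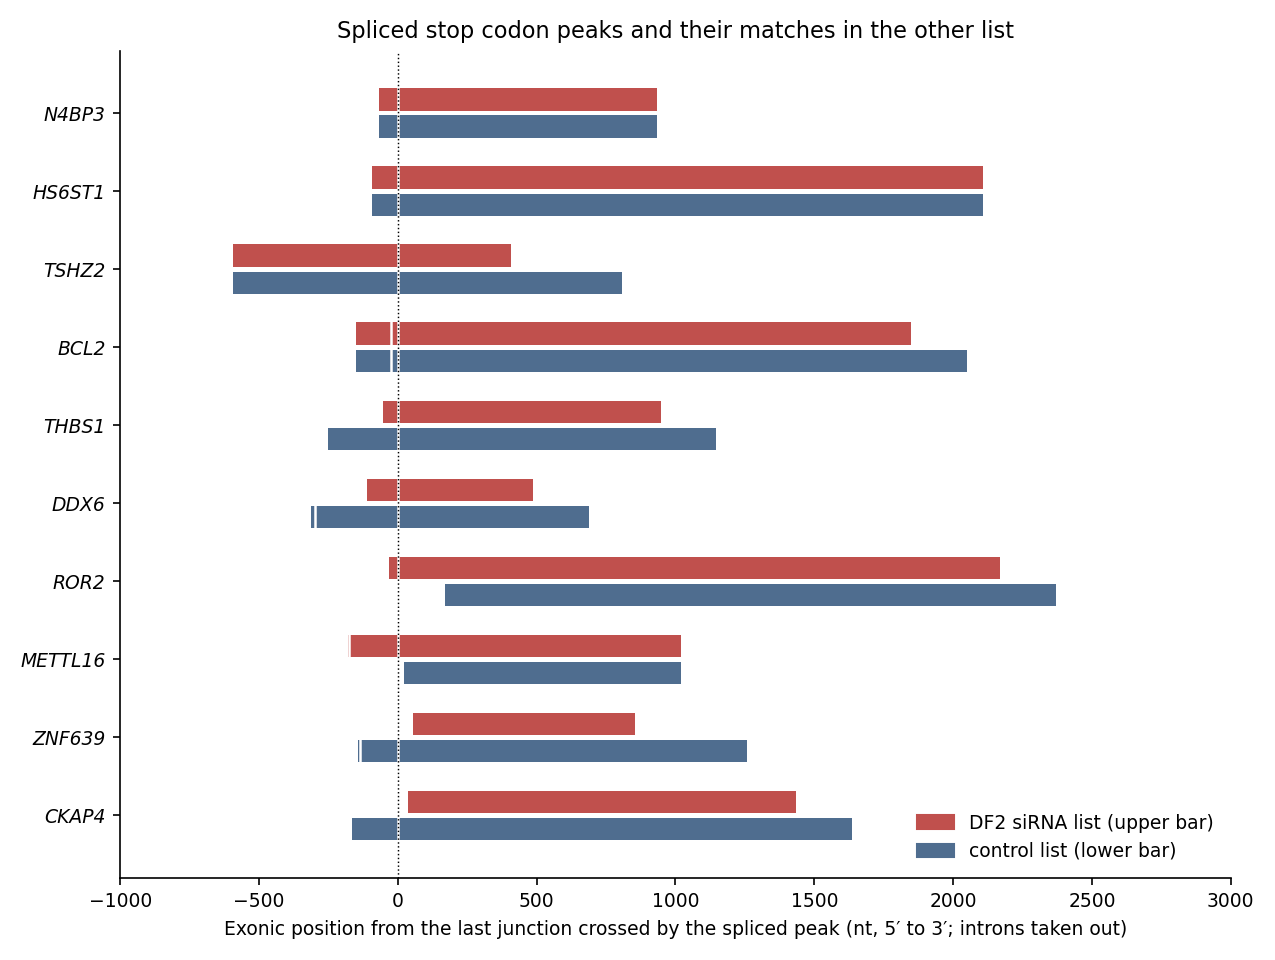
Exonic extent of 10 named spliced stop codon peaks and their matches, drawn from the last junction crossed by the spliced peak (0 on the x axis, in nt, 5′ to 3′, introns taken out), with DF2 siRNA peaks in red above control peaks in blue; white lines mark further introns. N4BP3 and HS6ST1 have the same interval in both lists, while ROR2 and METTL16 cross the junction in DF2 siRNA only and ZNF639 and CKAP4 in control only.

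The members with the strongest deposited fold enrichment, the authors' ratio per peak, were largely found in both lists at the same place. In DF2 siRNA cells N4BP3, which encodes a partner of the ubiquitin ligase NEDD4, came first at 206. Its interval of 1000 nt on chromosome 5, from 178121287 to 178122407, was the same in control cells, where its fold enrichment was 293. The gap there was 121 nt, and 66 nt lay before the junction. HS6ST1, a heparan sulfate 6-O-sulfotransferase gene, had an identical interval of 2200 nt across 20774 nt of intron. STIM2, an endoplasmic reticulum calcium sensor gene, PHF20, a chromatin reader gene, and SUOX, the sulfite oxidase gene, were identical in both lists too. HAGHL led the control list at 311, with a peak of 2490 nt that was identical in DF2 siRNA cells at 72.5. These values rank peaks within a list and do not measure a change between lists, and the median over members was 29.4 in DF2 siRNA cells and 35.0 in control cells.

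Some strong members had a shorter or longer counterpart. BAG4, an HSP70 co-chaperone gene, had 1000 nt in DF2 siRNA cells and 1600 nt in control cells. PLEKHG3, a guanine nucleotide exchange factor gene, had 2400 nt in DF2 siRNA cells, met by 2 control peaks of 1400 and 800 nt. ZNF316 had 3000 nt in DF2 siRNA cells, met by 2 control peaks, a member of 2200 nt and a 3′ UTR peak of 400 nt.

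Among strong members met only by a single-exon peak, the 5′ ends often differed by 200 nt, the length of 1 bin. ROR2, a receptor for WNT5A, had 2200 nt in both lists. The DF2 siRNA peak, from 91722939 to 91726571 on chromosome 9, lay 200 nt further towards the 5′ end and so reached 31 nt across the junction. METTL16, the methyltransferase of U6 snRNA, had 1200 nt over 2 introns in DF2 siRNA cells and 1000 nt in 1 exon in control cells. ARRB1 (beta-arrestin) and EHD1 (endocytic recycling) also had 200 nt more at the 5′ end in DF2 siRNA cells. In the other direction ZNF639 had 800 nt in 1 exon in DF2 siRNA cells, against 1400 nt over 2 introns in control cells. CKAP4, which encodes a protein of the endoplasmic reticulum membrane, had 1400 nt in DF2 siRNA cells and 1800 nt across 7019 nt of intron in control cells.

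Some members of the DF2 siRNA list had no match in control cells. Among the strongest of these were ANKRD13B with a fold enrichment of 29.8, the polarity gene PARD6G with 28.7 and the Polycomb ubiquitin ligase gene RING1 with 28.6. PSD4 had 22.9, HEXDC 22.1, and SYMPK, a scaffold of mRNA 3′ end formation, 21.3. Other members, of the control list, had no match in DF2 siRNA cells. Among the strongest of those were KATNBL1 with 82.4, C18orf54 with 63.1, INHBE with 53.8, the CUL3 adaptor gene SPOPL with 51.6 and IKBIP with 49.4. Fold enrichment ranks these peaks within their own list, and the values of the lists are not compared.

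Members were read against all genes with a peak, of which 23.2% in DF2 siRNA cells and 26.3% in control cells had a member. Among exon junction complex and nonsense-mediated decay genes, 6 of 11 with a peak had one in DF2 siRNA cells and 4 of 11 in control cells. The core component CASC3 and PYM1 (listed as WIBG), which takes the complex apart, had identical intervals of 800 and 1000 nt in both lists. SMG8, of the kinase complex that phosphorylates UPF1, had 800 nt in DF2 siRNA cells and 1000 nt in control cells. UPF3B had a member in both lists, and SMG5 and UPF3A in DF2 siRNA cells only.

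Of the m6A machinery, 5 of 20 genes with a peak had a member in DF2 siRNA cells and 5 of 20 in control cells. The demethylase FTO, the writers METTL14 and WTAP and the reader YTHDF3 had one in both. YTHDF3 had a member with an identical interval of 1600 nt in both lists, of which 1551 nt lay before the junction. A further YTHDF3 member had 400 nt in DF2 siRNA cells and 600 nt in control cells. METTL14 had 800 nt in DF2 siRNA cells and 1400 nt in control cells from the same 5′ end. METTL16 had a member in DF2 siRNA cells only and the writer VIRMA in control cells only.

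CCR4-NOT and other decay factors gave 5 of 14 in DF2 siRNA cells and 6 of 16 in control cells. The helicase gene DDX6 had 600 nt over 1 intron in DF2 siRNA cells and 1000 nt over 2 in control cells, shorter by 200 nt at each end. CNOT9 (listed as RQCD1), a CCR4-NOT subunit, had the same 800 nt in both. DCP1A, of decapping, and PAN3, of poly(A) trimming, had a member in both. EDC3 had one in DF2 siRNA cells only, CNOT2 and DCP2 in control cells only.

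Chromatin regulators had 11 of 32 in DF2 siRNA cells and 17 of 32 in control cells. ARID2, KMT2A, SETD2, SUZ12, TET2 and TET3 had a member in control cells only. The histone methyltransferase genes NSD2 (listed as WHSC1) and KMT2D each had a member with an identical interval of 800 nt. NSD2 had further members in control cells, of 600 and 800 nt. A further KMT2D member had 2800 nt in DF2 siRNA cells. It was met in control cells by a member of 1000 nt and a coding peak of 1600 nt, with the same outer ends. The NSD1 member across 23503 nt of intron had 1400 nt in DF2 siRNA cells and 1600 nt in control cells. Other NSD1 members, of 800 and 2000 nt, had the same start and end in both lists.

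Matrix and adhesion genes had 5 of 16 in DF2 siRNA cells and 7 of 17 in control cells. The collagen gene COL5A1 and the integrin gene ITGA5 had identical intervals of 800 and 1177 nt. THBS1 (thrombospondin 1) had 1000 nt in DF2 siRNA cells and 1400 nt in control cells, again 200 nt shorter at each end. Splicing factors had 3 of 9 in DF2 siRNA cells and 2 of 12 in control cells, with SF3B3 and SRSF11 in both and HNRNPM in DF2 siRNA cells only. Cytosolic ribosomal protein genes had 0 of 14 in DF2 siRNA cells and 0 of 22 in control cells. These lists are short and nothing is called particular to any of them.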

How the data were processed

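m6A immunoprecipitates and inputs of DF2 siRNA and control U2OS cells, 2 libraries in each of 4 groups, were reduced by the authors to 1 peak list per condition. HISAT2 and the genome build hg38 are named in the submitters' processing notes. Peak caller, annotation, filters and strandedness were not found in the sources used here. According to the column names, the deposited values of each peak are a fold enrichment, which is a ratio to an unstated denominator, a score in whole numbers and a −log10 value. The authors named this −log10 column for an FDR in 1 file (DF2 siRNA) and for a p-value in the other (control), although its minimum was 1.30 in both. Fold enrichment and score only rank or describe peaks inside their own list. Feature labels, positions and blocks are the authors' own. Library depth is unknown.

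Exonic width is the sum of the block sizes, and the gap is the genomic span minus that sum. On the minus strand the deposited block sizes run opposite to the block starts and were reversed, which leaves membership untouched. A match is at least 1 shared exonic base on the same strand. The last junction is the most 3′ gap of over 20 nt in a peak. Names were looked up among RefSeq genes (GRCh38.p14) no further than 100000 bp away, by symbol (8514 of 10555 names) or older name (661). Positions are counted from 1.

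Shares carry exact Clopper-Pearson 95% intervals, and no test was made between conditions. The members, gene lists and alternatives were chosen with earlier results of these data known. Genes named were YTHDF2; per list the 8 members with the highest fold enrichment, 5 longest gaps, 5 largest widths, 4 with most introns, 6 strongest without a match and 6 strongest with only a single-exon match; the 6 strongest identical pairs; and up to 3 members per gene list and condition. Some genes that this rule selects are not reported here. Other list genes are named where they complete a count, and those just inside or outside the 20 nt limit where they mark it. The overlap procedure was tested on simulated data. Python 3.11.15, numpy 2.4.6, scipy 1.17.1 and matplotlib 3.10.9 were used.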

Additional observations from a re-analysis of the deposited data

How the results depend on the processing

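Of 166 alternative values for 16 results, 131 stayed within the limits set for them, 32 moved and 3 reversed. The number of members per list stayed within 1.5 times under each alternative that gave one, and so did both ratios by gap. Adding peaks also labelled 5′ UTR gave a control match of 85.5%, a match to a spliced peak of 83.8% in DF2 siRNA and 64.0% in control, gaps of 2207 nt and 2786 nt, and a control fold enrichment of 36.4. With a −log10 value of at least 3.3, the control match was 74.5%, that to a spliced peak 56.3%, and fold enrichment 37.3 in DF2 siRNA and 41.3 in control. In the upper 50% by fold enrichment, the match was 89.8% in DF2 siRNA and 75.9% in control, that to a spliced peak 77.8% in DF2 siRNA, the control width 1000 nt, and fold enrichment 39.7 and 48.0. With the control list cut to equal length by keeping its peaks of highest fold enrichment, the match was 93.9% in DF2 siRNA and 86.0% in control. At no more than 1000 nt, it was 93.3% in DF2 siRNA and 78.5% in control, that of control members to a spliced peak 58.4%, the width 600 nt in both, the gap 1638 nt and 1960 nt, and fold enrichment 23.5 and 26.6. With a reciprocal overlap of 50%, the match was 90.0% in DF2 siRNA and 77.1% in control, and that to a spliced peak 77.7% and 57.7%. The width limit and the fold enrichment limit select on the measure itself. For the other shifts the cause was not tested.

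The match of spliced minus single-exon peaks was 3.13 points in DF2 siRNA, and 6.72 points with the reciprocal overlap. In control it was 2.72 points (0.69 to 4.74). There it reversed to −3.52 points (−6.06 to −0.97) with the −log10 limit and −2.83 points (−5.56 to −0.089) in the upper 50%. At equal length it was −0.126 points (−2.03 to 1.78), counted above as reversed although this interval covers both signs. The cause of these shifts was not tested. With block sizes in the deposited order, an alternative chosen after seeing the data like those of the ratios by gap, the match changed for 2 control members and 0 DF2 siRNA members. No paired analysis was possible because each list combines both immunoprecipitates of its condition, and for the same reason no library could be left out. What depth limits is unknown, since the lists give no read totals.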

Other observations

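Spliced peaks were a smaller part of the stop codon peaks on chromosome 19 than on the other chromosomes. There they were 29.9% in DF2 siRNA cells (120 of 402) and 32.6% in control cells (132 of 405), against 44.7% and 52.0% over all chromosomes. The ratio of DF2 siRNA to control members was highest on chromosome 22, with 66 and 56 members, and lowest on chromosome 4, with 68 and 123. The ratio over all peaks was 0.925 on chromosome 22 and 0.789 on chromosome 4. On chromosomes 16 and 17 it was 0.961 and 0.905, and on chromosomes 2 and 14 it was 0.568 and 0.583. Over all peaks it was 0.939 and 0.899 on chromosomes 16 and 17, and 0.773 and 0.768 on chromosomes 2 and 14. No test was made across chromosomes.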
